A study of Mus musculus with 4 samples.

Results

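Collagen transcripts of the mouse lens were compared between S100A4-/- and wild-type (WT) animals. The collagen genes were taken as every row of the normalized expression table whose gene symbol has the form Col, a type number, the letter a and a chain number. This gave 34 genes of 14924 in the table, and all 34 passed the filter on low values (1 library or more at 10 normalized units or above). They comprised 6 type IV genes, 5 genes of types II, IX and XVIII, 9 other fibrillar genes, 4 type VI genes, 3 further fibril-associated genes, 2 transmembrane genes and 5 others. A further 10 listed collagen genes, among them Col14a1, Col17a1 and Col24a1, had no row in the normalized expression table and so were not analysed here.

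Poly(A) RNA was sequenced from lenses of 30-day-old (P30) mice on a C57BL/6J background. S100A4-/- lenses came from a germline knockout of S100a4, a calcium-binding protein gene of differentiating lens fibers, and WT lenses came from littermates. Each group had 2 libraries, each made from a pool of 6 to 12 lenses, and the labels name no treatment. The animals behind each pool are not named, so the spread between the 2 libraries of a group is a spread between pools. The libraries held 81602367 and 74108017 reads (S100A4-/- 1 and 2) and 70253985 and 68038158 reads (WT 1 and 2). The values are reads divided by a size factor for each library, with 1 read worth between 0.856 and 1.09 units, and are called normalized values below. S100a4 itself stood at 14.6 and 18.2 in the S100A4-/- lenses against 14420 and 14385 in WT lenses, so the libraries matched their genotype labels.

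Collagens are trimeric proteins of the extracellular matrix. In the eye they divide by place: type IV builds the network of the lens capsule, the basement membrane that lens cells lay down around the whole lens, whereas types II, IX and XI form the thin mixed fibrils of the vitreous, and type XVIII is a heparan sulfate proteoglycan of ocular basement membranes and of the vitreous border. Type I, III and V fibrils belong to the sclera, the corneal stroma and vessel walls. The collagens were therefore followed as capsule (type IV), vitreous (types II, IX and XVIII) and fibrillar groups, with type XI counted among the fibrillar genes.

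The type IV collagens dominated the collagen RNA of the lens and did not pass the test, while the group of types II, IX and XVIII, rarer by far, rose. All 5 genes of this group rose in S100A4-/- lenses, by 1.58 to 2.32 on the log2 scale, together with Col11a1 and the transmembrane collagen Col23a1. Col11a2, the other type XI gene, did not pass the threshold. None of the 6 type IV genes passed the threshold, and their log2 fold changes lay between -0.11 and -0.03. In all, 7 of 34 collagens were higher and 0 were lower at a change of at least 2-fold and an adjusted p of at most 0.05 (limma on log2 of the normalized value plus 1, Benjamini-Hochberg over 14780 genes). Of all genes tested, 3.65% were higher and 0.0744% were lower by the same threshold. At an unadjusted p under 0.05, 10 collagens were higher and 2 were lower in S100A4-/- lenses (Col4a6 and Col6a3), against 11.0% and 6.71% of all genes tested. Both edgeR and DESeq2 on the recovered reads also called 7 higher and 0 lower, against 3.76% and 2.82% of all genes higher and 0.0744% and 0.0402% lower. The median log2 fold change was 0.28 over the 34 collagens and -0.005 over all genes, and 0.05 and -0.03 under quantile normalization.

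The start regions of some of the collagens that rose are printed here because these genes moved together. RefSeq (GRCm38.p6) held start-site windows for 5 of the 7 genes, as 7 windows, with paired starts for Col9a1 and for Col18a1, and Col2a1 and Col9a3 were not matched. Each run is the 250 bases before a start, on the strand of the gene, and capitals mark matches to GGGCGG or its reverse complement, the letters of the Sp1 GC box. Col9a1 is shown at both of its starts, the upstream at chr1:24177360-24177609 and the downstream at chr1:24194953-24195202, and the downstream start gives the short form of the chain known from the vitreous. Col11a1 (chr3:114030290-114030539) and Col23a1 (chr11:51289670-51289919) are shown beside it, and all 4 windows are on the plus strand.
Col9a1 upstream: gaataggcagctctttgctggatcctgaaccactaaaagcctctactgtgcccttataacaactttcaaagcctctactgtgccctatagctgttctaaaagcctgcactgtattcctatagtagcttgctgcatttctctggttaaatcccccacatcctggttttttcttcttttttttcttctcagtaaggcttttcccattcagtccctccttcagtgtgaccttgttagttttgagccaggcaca
Col9a1 downstream: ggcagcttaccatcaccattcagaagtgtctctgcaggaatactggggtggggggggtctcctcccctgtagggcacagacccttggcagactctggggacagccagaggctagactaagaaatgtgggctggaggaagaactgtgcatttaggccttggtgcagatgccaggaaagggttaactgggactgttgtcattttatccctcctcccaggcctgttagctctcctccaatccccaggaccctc
Col11a1: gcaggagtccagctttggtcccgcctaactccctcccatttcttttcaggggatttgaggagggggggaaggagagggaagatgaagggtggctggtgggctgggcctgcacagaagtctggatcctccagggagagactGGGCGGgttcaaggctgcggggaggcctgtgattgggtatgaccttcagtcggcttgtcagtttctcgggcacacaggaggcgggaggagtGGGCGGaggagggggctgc
Col23a1: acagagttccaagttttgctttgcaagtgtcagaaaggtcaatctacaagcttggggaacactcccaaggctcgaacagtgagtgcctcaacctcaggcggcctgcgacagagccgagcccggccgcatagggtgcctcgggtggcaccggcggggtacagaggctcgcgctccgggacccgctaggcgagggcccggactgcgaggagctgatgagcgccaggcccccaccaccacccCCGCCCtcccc
The Col9a1 windows held no GC box and no CpG, the Col11a1 window held 2 GC boxes and 7 CpG, and the Col23a1 window held 1 GC box and 18 CpG. Over the 7 windows, 4 held GGGCGG, which occurs on either strand in 32.7% of all 32851 RefSeq windows of this length, in 15 of 23 windows of the collagens that did not pass and in 3 of 5 windows of type IV. TAATCC (letters bound by OTX and CRX homeodomain factors), ACAAT (the SOX core) and TGCTGAC (a half-site of NRL and MAF) were searched on both strands, and none of these motifs contains another. They were in 0 of the 7 windows, against 6.25%, 27.7% and 3.81% of all windows, and in 0, 1 and 0 of the 23 windows of the collagens that did not pass. These letters are descriptions of the windows and say nothing of which factors bind there.

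**Figure D1:**
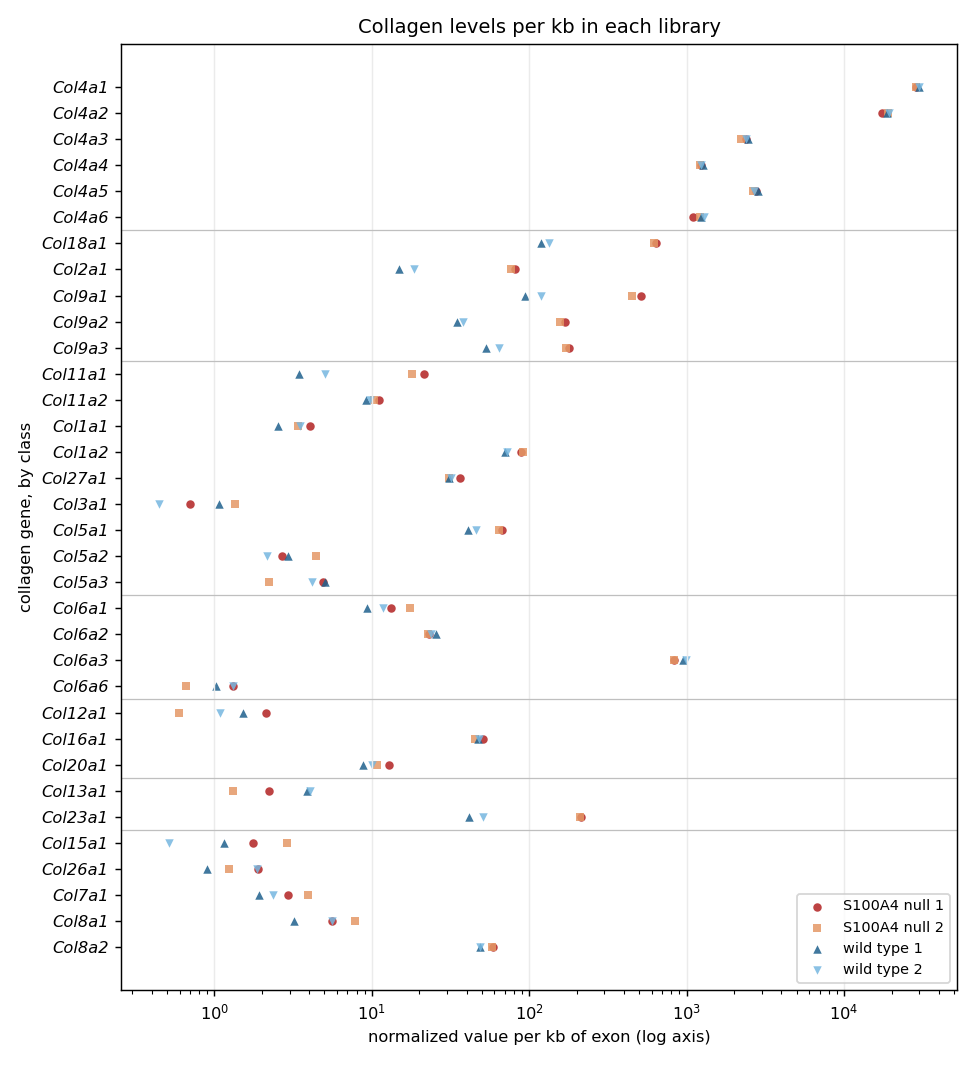
Normalized value per kb of exon (x axis, log scale) of each of the 34 collagens (y axis) in the 2 S100A4-/- libraries (S100A4 null, circle and square) and the 2 WT libraries (wild type, triangles). Grey lines part the classes, from the top type IV; types II, IX and XVIII; other fibrillar; type VI; other fibril-associated; transmembrane; and other. The type IV genes lie at the right with the libraries together, and the S100A4-/- points of Col18a1, Col2a1, Col9a1, Col9a2, Col9a3, Col11a1 and Col23a1 lie to the right of the WT points.

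Levels of single genes were compared as normalized values per kb of exon, and some chain ratios also with the longest transcript. Shares of collagen reads were not scaled by length. Col4a1 and Col4a2, the chains of the common type IV trimer of all basement membranes, stood first in WT lenses at 30068 ± 37.1 and 19048 ± 507 per kb (SD, n = 2 in both). Col4a5 followed at 2763 ± 100.2 and Col4a3 at 2405 ± 51.0 per kb (SD, n = 2). Col4a6 at 1258 ± 29.8 and Col4a4 at 1256 ± 24.8 per kb (SD, n = 2) did not differ beyond their spread. Col6a3, a chain of the beaded microfibrils of type VI, was seventh with 967.5 ± 23.1 per kb, and then came a gap to Col18a1 at 126 ± 10.04 and Col9a1 at 106 ± 17.1 per kb (SD, n = 2), whose libraries stood at 119 and 133 for Col18a1 and at 94.4 and 119 for Col9a1. Collagen reads were 0.597% and 0.567% of all reads in S100A4-/- 1 and 2, and 0.588% and 0.584% in WT 1 and 2. Type IV supplied 94.3% and 94.6% of the collagen reads in S100A4-/- lenses and 96.3% and 96.1% in WT lenses. The 7 genes that rose supplied 2.52% and 2.32% in S100A4-/- lenses and 0.474% and 0.559% in WT lenses. The share of collagen in all reads thus overlapped between the genotypes, and the shares of its parts did not.

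Type IV collagen of the capsule was measured with very many reads. Col4a1 was 213579 and 214085 in S100A4-/- lenses and 224625 and 224233 in WT lenses, with a log2 fold change of -0.07 ± 0.04 (SE, limma adjusted p = 0.404). Both S100A4-/- libraries lay below both WT libraries, by a difference that did not pass the test. Col4a2, which joins Col4a1 in the trimer, was 115175 and 126382 against 123701 and 128449, a log2 fold change of -0.06 ± 0.04 (SE, adjusted p = 0.489), and the groups overlapped. The ratio of Col4a1 to Col4a2 per kb was 1.64 and 1.502 in S100A4-/- lenses and 1.61 and 1.55 in WT lenses, so the relative amount of the partner chains overlapped between genotypes.

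Col4a3, Col4a4 and Col4a5 encode the chains of the type IV trimer best known from the glomerular basement membrane and from Alport syndrome. Col4a3 was 23867 and 22012 in S100A4-/- lenses and 24330 and 23612 in WT lenses. Col4a4 was 13142 and 12983 against 13517 and 13144. Col4a5 was 18577 and 17841 against 19040 and 18088. The S100A4-/- values of Col4a4 lay just below the WT values, and those of Col4a3 and Col4a5 overlapped them. Their log2 fold changes were -0.06, -0.03 and -0.03 (limma adjusted p from 0.471 to 0.809). Col4a6, which pairs with Col4a5 in a trimer of epithelial basement membranes, was 8801 and 9747 against 9860 and 10196, with a log2 fold change of -0.11 ± 0.05 (SE, adjusted p = 0.173). Its groups did not overlap, as for 3 of the 6 type IV genes in the downward direction, where 23.2% of all genes tested had both S100A4-/- values below both WT values. Missing the threshold does not show that type IV levels were equal. Over 16 other ways of processing, the log2 fold changes of the 6 genes stayed between -0.19 and 0.03. Without S100A4-/- 2, Col4a2 (-0.13, limma adjusted p = 0.048) and Col4a6 (-0.19, adjusted p = 0.023) had an adjusted p under 0.05, both under 2-fold.

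The type IV genes sit in head-to-head pairs in the genome. By the GENCODE M21 annotation (GRCm38) the starts of Col4a1 and Col4a2 on chromosome 8 were 21 bp apart, those of Col4a3 and Col4a4 on chromosome 1 were 72 bp apart, and those of Col4a5 and Col4a6 on the X chromosome were 1309 bp apart. The chains of a pair differed in level. The WT ratio per kb was 1.58 for Col4a1 to Col4a2, 1.91 for Col4a3 to Col4a4 and 2.20 for Col4a5 to Col4a6. With the longest transcript in place of all exons these ratios were 1.74, 2.12 and 1.88.

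**Figure D2:**
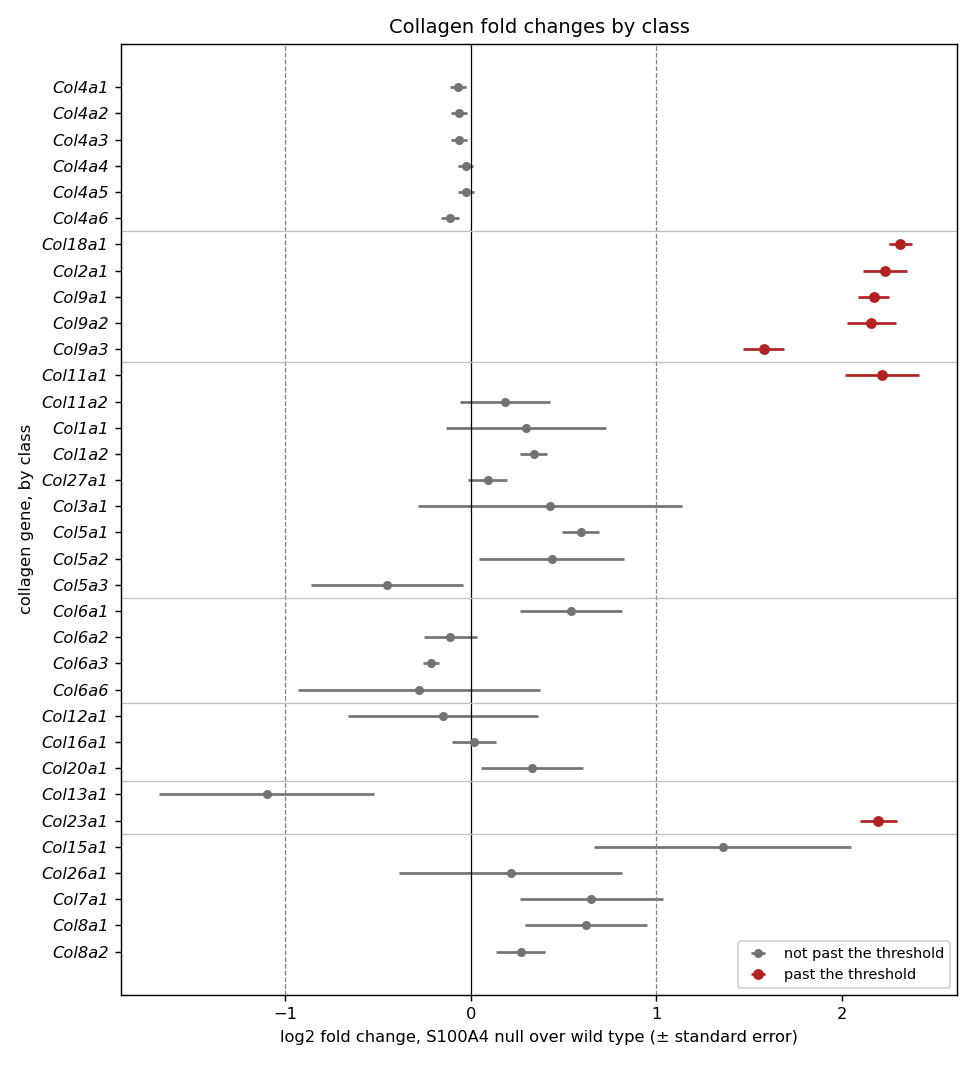
Log2 fold change of S100A4-/- over WT lenses (x axis, S100A4 null over wild type) with its standard error (bars) for the 34 collagens (y axis), with the classes parted by grey lines in the order of the plot of levels and dashed lines at a 2-fold change. The 7 genes past the threshold (red) lie between 1.58 and 2.32, and the 6 type IV genes lie between -0.11 and -0.03.

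Col18a1, on chromosome 10 (77052178-77166548, minus strand), encodes the basement membrane proteoglycan whose C-terminal fragment is endostatin. It was 4462 and 4337 in S100A4-/- lenses and 834 and 934 in WT lenses, with a log2 fold change of 2.32 ± 0.06 (SE, limma adjusted p = 1.0e-26). The groups lay far apart, and Col18a1 moved from 126 to 627 per kb, still below Col6a3 and every type IV gene. Its 3′ end overlaps Slc19a1 on the opposite strand, which itself had 322 and 270 reads in S100A4-/- lenses against 208 and 180 in WT lenses. Whether reads were counted by strand is not given in the sources used here. Its nearest relative, Col15a1, was 11.1 and 18.2 against 7.31 and 3.28, and this rested on 3 to 18 reads a library and did not pass (limma adjusted p = 0.304).

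Col2a1, on chromosome 15 (97975602-98004695, minus strand), makes the main fibril of vitreous and cartilage. It was 747 and 704 in S100A4-/- lenses and 138 and 171 in WT lenses, with a log2 fold change of 2.23 ± 0.12 (SE, adjusted p = 1.7e-17). The groups lay far apart, and the WT libraries held 132 and 156 reads of this gene.

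Type IX collagen sits on the surface of type II fibrils, and its trimer holds the products of Col9a1, Col9a2 and Col9a3. Col9a1 (chromosome 1, 24177610-24252684) was 2582 and 2268 in S100A4-/- lenses and 478 and 601 in WT lenses, with a log2 fold change of 2.17 ± 0.08 (SE, adjusted p = 5.9e-22). Col9a2 (chromosome 4, 121039385-121055322) was 522 and 487 against 108 and 117, a log2 fold change of 2.16 ± 0.13 (SE, adjusted p = 1.4e-15). Both groups were apart for each of these genes, and their fold changes were within a standard error of each other. Col9a3 (chromosome 2, 180597790-180622189) was 691 and 661 against 206 and 247, a smaller log2 fold change of 1.58 ± 0.11 (SE, adjusted p = 4.5e-14). All 3 genes are on the plus strand. The ratio of Col9a1 to Col9a2 per kb was 3.02 and 2.84 in S100A4-/- lenses and 2.72 and 3.13 in WT lenses, so it overlapped. The ratio of Col9a1 to Col9a3 was 2.84 and 2.61 against 1.77 and 1.85, with the S100A4-/- libraries above the WT libraries. The ratio of Col9a3 to Col9a2 was 1.06 and 1.09 in S100A4-/- lenses, near equal, against 1.54 and 1.70 in WT lenses. Of the chains that share this trimer, Col9a1 was the highest per kb in both genotypes, and the difference in fold change between Col9a3 and the others was not tested.

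Of the 9 fibrillar genes outside type II, only Col11a1 passed the threshold. Col11a1 (chromosome 3, 114030540-114220718, plus strand) encodes a chain of the core of type II fibrils. It was 275 and 230 in S100A4-/- lenses and 43.9 and 64.6 in WT lenses, with a log2 fold change of 2.22 ± 0.20 (SE, limma adjusted p = 5.4e-11). The groups did not overlap, but limma without its intensity trend lost the call. Col11a2, the partner chain in type XI, was 76.2 and 70.9 against 62.6 and 66.8, with a log2 fold change of 0.18 ± 0.24 (SE, adjusted p = 0.768). The ratio of Col11a1 to Col11a2 per kb was 1.95 and 1.75 in S100A4-/- lenses and 0.378 and 0.522 in WT lenses. With the longest transcript the ratio of WT means was 0.661. Col11a1 was thus the higher chain per kb in both S100A4-/- libraries and the lower in both WT libraries. The WT order rested on 42 and 59 reads of Col11a1 against 60 and 61 of Col11a2, and the change of order was not tested.

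Col5a1, a nucleator of type I fibrils that can also join type XI chains, was 567 and 548 in S100A4-/- lenses and 349 and 392 in WT lenses, with a log2 fold change of 0.59 ± 0.10 (SE, adjusted p = 5.4e-05). Col1a2, a chain of type I collagen, was 1103 and 1134 against 870 and 899, a log2 fold change of 0.34 ± 0.07 (SE, adjusted p = 0.0016). Both had S100A4-/- values above all WT values and an adjusted p under 0.05, and both changes were under 2-fold. In limma without its trend they lost that adjusted p (0.131 and 0.186). Without a fold threshold, 5.62% of all genes were higher.

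The remaining chains of types I, III and V were rare. Col1a1 was 26.5 and 22.3 in S100A4-/- lenses and 16.7 and 23.0 in WT lenses (limma adjusted p = 0.793). Col3a1 was 6.85 and 13.2 against 10.4 and 4.38 (adjusted p = 0.828). Both overlapped between the groups. Per kb, Col1a2 was 20.6 to 27.5 times Col1a1 in the 4 libraries, and the ratio of WT means went from 23.5 to 49.4 with the longest transcript in place of all exons, although type I trimers usually hold more of the Col1a1 chain than of the Col1a2 chain. Col5a2, a partner chain of Col5a1, was 25.7 and 42.6 against 28.2 and 20.8 (adjusted p = 0.624). Col5a3 was 33.4 and 15.2 against 34.5 and 28.5 (adjusted p = 0.629). Neither separated the groups. Col27a1, a fibrillar collagen of cartilage, had a log2 fold change of 0.09 (adjusted p = 0.731).

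Among the collagens outside these groups, Col23a1 was the one past the threshold. Col23a1 (chromosome 11, 51289920-51583918, plus strand) encodes a transmembrane collagen. It was 1223 and 1209 in S100A4-/- lenses and 238 and 293 in WT lenses, with a log2 fold change of 2.20 ± 0.10 (SE, limma adjusted p = 5.4e-20). The groups lay apart and the S100A4-/- libraries were close together. The other transmembrane collagen, Col13a1, was 10.3 and 6.08 against 17.8 and 18.6, from 6 to 17 reads, with a log2 fold change of -1.10 ± 0.58 (SE, adjusted p = 0.324). Col6a3 was 9999 and 9962 against 11379 and 11770, a log2 fold change of -0.21 ± 0.04 (SE, adjusted p = 7.5e-04), and it was the 1 collagen with a lower level and an adjusted p under 0.05, short of the 2-fold threshold. It lost that adjusted p without WT 2 (0.064) and in limma without its trend (0.330). Without a fold threshold 1.33% of all genes were lower. Its partner chains were scarce, with Col6a3 at 47.4 to 102 times Col6a1 per kb and at 36.4 to 41.3 times Col6a2 per kb.

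The other collagens gave no call. Col8a2, a chain of the short-chain network of Descemet's membrane, was 264 and 260 in S100A4-/- lenses and 217 and 218 in WT lenses (log2 fold change 0.27 ± 0.13, SE, limma adjusted p = 0.282). Its groups did not overlap. Col16a1 was 345 and 305 against 318 and 323, with the S100A4-/- libraries on either side of the WT libraries. Log2 fold changes of Col6a1, Col6a2, Col6a6, Col12a1, Col20a1, Col26a1, Col7a1 and Col8a1 ran from -0.28 to 0.65 with adjusted p from 0.307 to 0.925. Counting all 34 collagens, 15 had both S100A4-/- values above both WT values, as did 23.7% of all genes tested, and 6 had both below, as did 23.2% of all genes tested.

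The collagens that rose also varied together within a genotype. Each of the 7 was higher in WT 2 than in WT 1, with a median log2 difference of 0.30, whereas 50.8% of all genes were higher in WT 2. Each of the 7 was also higher in S100A4-/- 1 than in S100A4-/- 2, with a median log2 difference of 0.08, against 49.9% of all genes. Of the 6 type IV genes, 2 were higher in WT 2 and 3 in S100A4-/- 1. The genes share their libraries and so are not independent of each other.

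Genes that fold, process, bind or degrade collagens were taken as 6 lists of 74 genes, 64 of them in the table and 63 tested. Past the threshold, 8 were higher and 0 were lower, where 3.65% of all genes were higher and 0.0744% lower. At an unadjusted p under 0.05, 16 of these genes were higher and 5 were lower, beside the same 11.0% and 6.71% of all genes tested. Under the main threshold edgeR and DESeq2 called 8 and 7 higher (DESeq2 without Tll1) and 0 and 0 lower. The median log2 fold change over the 63 genes was 0.02.

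None of the 20 folding and hydroxylation genes passed, with a median log2 fold change of -0.08. P3h3, a prolyl 3-hydroxylase family member, was the 1 member with a limma adjusted p under 0.05 (0.023). It was higher by under 2-fold (log2 fold change 0.63 ± 0.18, SE), and its groups did not overlap. In DESeq2 P3h3 lost that adjusted p (0.190). P4ha1, a catalytic subunit of the prolyl hydroxylase that collagen helices need, was the member highest per kb, at 17326 and 18032 in S100A4-/- lenses and 18767 and 19009 in WT lenses (adjusted p = 0.204). Serpinh1, the collagen chaperone of the endoplasmic reticulum, was 7723 and 7672 against 8173 and 8108 (adjusted p = 0.366), and Pdia3, a protein disulfide isomerase, was 5336 and 5652 against 5984 and 5672 (adjusted p = 0.389). In these 3 genes the S100A4-/- values lay below the WT values without passing the test.

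In the list of processing and crosslinking, 2 of 11 genes tested rose. Adamts2, the procollagen N-proteinase, was 65.1 and 44.6 in S100A4-/- lenses and 12.5 and 14.2 in WT lenses, with a log2 fold change of 1.93 ± 0.39 (SE, limma adjusted p = 6.0e-04). Tll1, a proteinase of the procollagen C-proteinase family, was 23.1 and 33.4 against 8.35 and 5.47, a log2 fold change of 1.89 ± 0.54 (SE, adjusted p = 0.023). Both were low, with 5 to 13 reads in the WT libraries. The members highest per kb in WT lenses, Pxdn, which crosslinks type IV, Loxl1, a lysyl oxidase, and Pcolce, an enhancer of the C-proteinase, had log2 fold changes of -0.04, 0.10 and 0.08 and adjusted p from 0.344 to 0.669.

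Of 7 collagen receptors tested, Mrc2, the endocytic receptor that takes up collagen fragments, was 162 and 129 in S100A4-/- lenses and 59.5 and 38.3 in WT lenses. Its log2 fold change was 1.58 ± 0.23 (SE, limma adjusted p = 5.1e-06) and the groups did not overlap. The receptors highest per kb, Itgb1, the shared integrin subunit, Ddr1, the epithelial collagen receptor kinase, and Ddr2, were not past the threshold, with log2 fold changes of -0.11, 0.002 and 0.18. None of the 7 degrading enzymes and inhibitors tested was past it either. Timp3, an inhibitor bound to matrix, was 9732 and 9556 against 8164 and 8476, a log2 fold change of 0.21 ± 0.04 (SE, adjusted p = 0.0011) that was under 2-fold. Timp2 and Timp1, soluble inhibitors, had log2 fold changes of -0.01 and -0.03.

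The partners of type IV in the basement membrane also stayed below the threshold except for Nid2, a nidogen that links laminin to type IV. Nid2 was 275 and 287 in S100A4-/- lenses and 94.0 and 76.6 in WT lenses, with a log2 fold change of 1.71 ± 0.17 (SE, limma adjusted p = 3.5e-10). Its abundant relative Nid1 was 68282 and 69090 against 70703 and 73906 (adjusted p = 0.350), with the S100A4-/- values below the WT values. Sparc, a collagen chaperone and matrix protein of lens cells, and Hspg2, the perlecan of basement membranes, had log2 fold changes of 0.02 and 0.07. The remaining 6 members were Agrn, a heparan sulfate proteoglycan, and 5 laminin chains. Agrn (0.61) and Lamb2 (0.34) had an adjusted p under 0.05 with changes under 2-fold.

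Proteoglycans that bind collagen fibrils gave 4 of 8 genes past the threshold, all higher (3.65% of all genes), with a median log2 fold change of 1.30, against -0.005 over all genes. Optc, the opticin of the vitreous, made by the ciliary epithelium, was 3609 and 3502 in S100A4-/- lenses and 693 and 888 in WT lenses, with a log2 fold change of 2.18 ± 0.08 (SE, limma adjusted p = 2.5e-23). Vcan, the versican that holds hyaluronan in the vitreous, was 1054 and 958 against 219 and 239 (2.13 ± 0.10, SE). Prelp, a leucine-rich proteoglycan that anchors basement membranes, was 926 and 919 against 214 and 261 (1.96 ± 0.10, SE), and Fmod, the fibromodulin of collagen fibrils, was 1547 and 1700 against 625 and 749 (1.24 ± 0.08, SE). The groups were apart for all 4 genes. Ogn, the highest of the list per kb, was 9697 and 9385 against 11163 and 10691, a log2 fold change of -0.20 ± 0.04 (SE, adjusted p = 0.0027) under 2-fold, and Bgn was 430 and 429 against 521 and 454 (adjusted p = 0.369). Both had S100A4-/- values below the WT values.

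**Figure D3:**
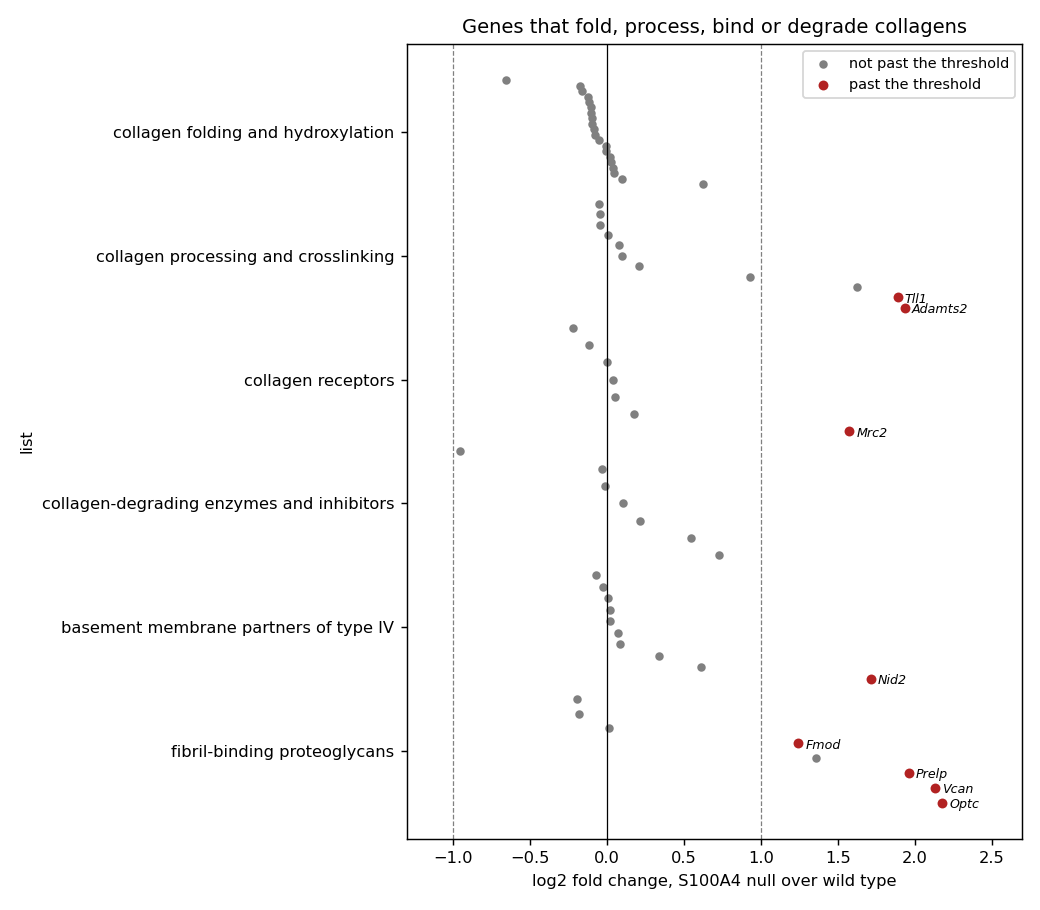
Log2 fold change of S100A4-/- over WT lenses (x axis, S100A4 null over wild type) for 63 tested genes in 6 lists of collagen partners (y axis), 1 point a gene, with dashed lines at a 2-fold change. Of the 8 genes past the threshold (red), 4 are fibril-binding proteoglycans, and no folding and hydroxylation gene is among them.

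Most or all markers tested in the rod, ciliary epithelium, Müller glia and pigment cell lists were higher, as were the collagens that rose. In the lists of other cell types, fewer markers or none passed the threshold. The median log2 fold changes of the macrophage and fibroblast lists were still 1.47 and 1.36, beside 1.46 for Müller glia. All 5 macrophage markers tested had both S100A4-/- values above both WT values, as did 23.7% of all genes tested. That list held only 64 and 65 reads in WT 1 and 2. Marker counts are read at the same threshold, at which 3.65% of all genes were higher and 0.0744% lower. In bulk RNA of a dissected lens, more cells of a type and more RNA per cell cannot be told apart. Of the lens markers, 0 of 9 fiber markers and 0 of 5 epithelium markers passed the threshold, with Cryaa, an alpha crystallin, and Foxe3, a transcription factor of lens epithelium, the highest per kb. Relative to the WT mean, the summed fiber markers stood at 0.930 and 0.996 in the S100A4-/- libraries and the summed epithelium markers at 1.00 and 0.991. All 9 rod markers were higher, with Gnat1, the rod transducin subunit, the highest per kb, and the list summed to 9162 and 8793 in S100A4-/- lenses against 2242 and 2381 in WT lenses, or 3.96 and 3.80 times the WT mean. Without Gnat1 the sums were 5823 and 5466 against 1506 and 1599.7.

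For the ciliary epithelium, which makes vitreous matrix, 5 of 7 markers were higher (Optc, Slc4a5, Best2, Zic1 and Wfdc1). The list summed to 8764 and 8702 in S100A4-/- lenses against 4444 and 4668 in WT lenses. In WT lenses Car14 was the highest of the list per kb, and in S100A4-/- lenses Optc was. Car14 was not called, with a log2 fold change of 0.08, and without it the sums were 5727 and 5524 against 1457 and 1793. Optc is also in the list of proteoglycans. For Müller glia, 4 of 6 were higher, with Glul, the glutamine synthetase, the highest per kb and sums of 6994 and 6807 against 2664 and 2905, or 1607 and 1385 against 884 and 982 without Glul. For pigment cells, 5 of 6 were higher, with Oca2 the highest per kb (log2 fold change 0.001) and sums of 1672 and 1737 against 682 and 754, or 1177 and 1230.4 against 174 and 261 without Oca2. These lists thus rose in most members but not all.

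For fibroblasts, 2 of 5 were higher, with Fbln1 the highest per kb and sums of 4438 and 4127 in S100A4-/- lenses against 1311 and 1585 in WT lenses. Without Fbln1 the sums were 533 and 418 against 422 and 441. For macrophages, 2 of 5 were higher (Csf1r and C1qa, the highest per kb, of which DESeq2 did not call C1qa), with sums of 209 and 169 against 66.8 and 71.2, or 116 and 99.3 against 33.4 and 36.1 without Csf1r. For endothelium, 1 of 6 was higher, with Egfl7 the highest per kb and sums of 507 and 499 against 370 and 446, or 184 and 182 against 98.2 and 115 without Egfl7. For pericytes, 2 of 5 were higher (Notch3 and Cspg4, of which DESeq2 did not call Cspg4), with Pdgfrb the highest per kb and sums of 2884 and 2894 against 2703 and 2702, or 617 and 600.0 against 397 and 355 without Pdgfrb. Krt12, a corneal keratin, had 0 reads in WT 2, which allows a level of up to 3.28 (3 reads, counting error only), and was under the filter on low values for limma, and DESeq2 did not call it (adjusted p = 0.861). The other corneal marker, Aldh3a1, had a log2 fold change of -0.004, and the pair summed to 1536 and 1688 against 1605 and 1615. No other marker in the table was at 0 reads in any library. The listed markers Opn5, Slc45a2, Lum, Pi16, Kera, Krt5, Emcn, Aif1 and Ptprc had no row in the normalized expression table and so were not analysed here. The summed lists were higher in WT 2 than in WT 1 for all lists but pericytes, lens fiber and lens epithelium included, as were the 7 collagens. They were higher in S100A4-/- 1 than in S100A4-/- 2 for ciliary epithelium, rod, Müller glia, fibroblast, macrophage, endothelium and lens epithelium, and not for pigment cell, pericyte, cornea and lens fiber. The part of the marker lists in the collagen result was not tested.

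**Figure D4:**
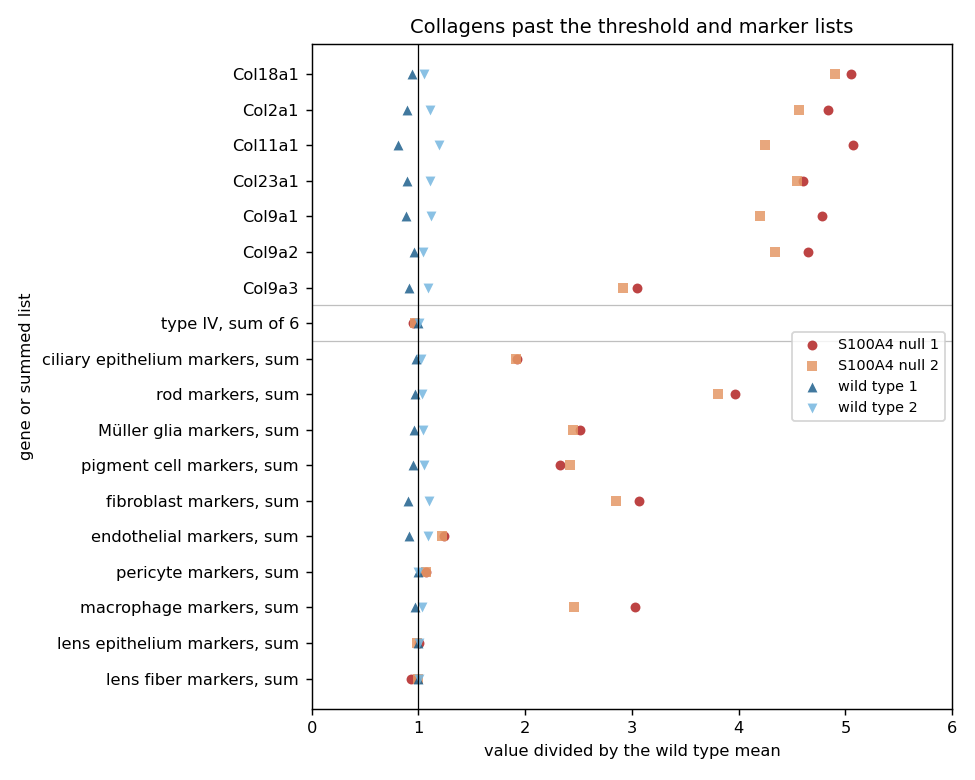
Values divided by the WT mean (x axis) in the 2 S100A4-/- libraries (S100A4 null, circle and square) and the 2 WT libraries (wild type, triangles) for the 7 collagens past the threshold, for the summed type IV genes and for 10 summed marker lists (y axis). The S100A4-/- points of Col18a1 lie at 5.05 and 4.91 and those of the rod markers at 3.96 and 3.80, and the type IV sum lies at 0.944 and 0.968.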

How the data were processed

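Per the labels and the study's methods, the authors trimmed single-end reads of stranded mRNA libraries (Trim Galore, keeping reads of at least 20 bases), aligned them with STAR to the mouse genome (mm10, GRCm38 v73), counted reads with HTSeq and dropped genes that had under 10 reads in every library. The deposited values are a signal, the reads divided by a DESeq2 size factor, and are not scaled by gene length. Tool versions are not given in the sources used here. Whole reads were recovered from the value of 1 read in each library, for 100% of the values at a tolerance of 0.01.

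S100A4-/- and WT libraries (n = 2 each) were compared with limma-trend (limma 3.58.1, R 4.3.3) on log2 of the value plus a pseudocount of 1, over 14780 of 14924 genes that reached 10 in 1 library or more. Genes at a change of at least 2-fold and a Benjamini-Hochberg adjusted p of at most 0.05 were called. edgeR 4.0.16 (quasi-likelihood) and DESeq2 1.42.0 on the recovered reads were alternatives, as were other scalings, filters, pseudocounts and leaving out each library. Symbols and exonic lengths came from GENCODE M21 for 14782 genes. The floor of 3 reads for a count of 0 covers counting error only, whereas the ± values are limma standard errors or SDs between libraries. Named with values were the type IV, vitreous and fibrillar collagens, every other collagen past the threshold, the 8 collagens highest per kb, and, of each partner list, the genes past the threshold and the 3 highest per kb in WT lenses; the choice of any other gene named followed a look at its values. The members and lists were chosen with earlier results of these data known. Replicate libraries differed by more than sampling noise (chi-square per gene with a mean of 35.0 and 15.0 and a median of 2.00 and 1.08 in S100A4-/- and WT) and were counted separately.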

Additional observations from a re-analysis of the deposited data

How the results depend on the processing

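The 7 collagens past the threshold kept their call and direction under 15 of the other settings, and limma without its trend lost Col11a1 alone, leaving 0 fibrillar genes. Leaving out any 1 library gave 7 collagens higher and 0 lower each time, with the lone library of a group assumed to vary like the other group. With no fold threshold, 9 collagens, 3 of them fibrillar, were higher and 1, of type VI, was lower, and 12 partner genes were higher and 1 lower. Partner genes higher were 4 without the trend, 4 against a 2-fold null (limma treat) and 6 to 8 leaving out a library, against 8. Over the whole table, 539 genes were higher and 11 lower. These became 281 and 6 at a mean value of at least 50, 174 and 7 without the trend, 168 and 3 against a 2-fold null, and 831 and 197 with no fold threshold. Quantile normalization gave 23 lower and DESeq2 gave 6 lower. Leaving out a library gave 275 to 535 higher and 6 to 13 lower, with 275 and 6 without S100A4-/- 1 and 304 higher without S100A4-/- 2. The cause of these shifts was not tested, except that a filter at 50 tests fewer genes.

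Of 34 collagens, 10 changed sign in some setting, none of them called. The log2 fold change turned under quantile normalization to 0.030 for Col4a2, 0.0081 for Col4a5, -0.0048 for Col11a2, -0.16 for Col3a1, -0.014 for Col16a1 and -0.14 for Col26a1. That scaling moved the median over the collagens from 0.28 to 0.05 and over all genes from -0.005 to -0.03. Col4a5 was 0.0014 with equal totals, and Col12a1 was 0.11 by edgeR and 0.092 by DESeq2. Over the fits that each left out 1 library, the log2 fold change ran from -0.13 to 0.0038 for Col4a2, -0.065 to 0.0094 for Col4a5, -0.020 to 0.20 for Col27a1, -0.12 to 0.97 for Col3a1, -0.996 to 0.090 for Col5a3, -0.72 to 0.16 for Col6a6, -1.01 to 0.71 for Col12a1, -0.072 to 0.11 for Col16a1 and -0.27 to 0.70 for Col26a1. The cause was not tested. With 2 libraries a group, the 10 collagens that changed sign could not be placed on either side of no change. Some rare collagens, among them Col15a1 and Col13a1, kept their sign in every setting run for them but did not pass the threshold.

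The groups share replicate numbers, but the libraries are pools of different animals. The deviations of same-numbered libraries were uncorrelated across genes (r = 0.01). With 2 libraries a group, this cannot tell whether same-numbered pools shared a litter or a preparation, which the labels do not give. With the replicate block, 7 collagens, 5 of them vitreous, and 8 partner genes were higher, and 576 genes of the whole table were higher and 15 lower.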
